A study of Mus musculus with 20 samples.

Results

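The alcohol and aldehyde dehydrogenases described here are 10 genes, 4 of the Adh family (Adh1, Adh4, Adh5 and Adh6-ps1) and 6 of the Aldh family (Aldh1a1, Aldh1a7, Aldh1b1, Aldh2, Aldh3a2 and Aldh8a1), chosen by symbol from the 25444 loci of the deposited tables. Their RNA was measured by strand-specific total RNA sequencing in the livers of 20 mice at 20 weeks of age. The mice were females and males of 2 inbred strains, C57BL/6N (B6) and C3H/HeN (C3), with 5 mice in each of the 4 groups and 1 library per mouse. No group carried a transgene or received a treatment, all mice were single housed on the same diets, and the left lateral lobe was taken from each. The sexes were housed in different rooms, and a difference between sexes cannot be told apart from 1 between rooms. The libraries held between 27370921 and 46835745 counted read pairs and were spread over 3 sequencing pools, with livers of every group in every pool.

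Alcohol dehydrogenases oxidize alcohols such as ethanol and retinol to aldehydes in the cytosol, and aldehyde dehydrogenases carry the aldehydes on to acids, with NAD as the usual electron acceptor. In liver the first step on ethanol gives acetaldehyde, and the second, mainly in mitochondria, gives acetate. The same families turn retinol into retinal and retinal into retinoic acid, and clear formaldehyde, fatty aldehydes and aldehydes from lipid peroxidation. Adh1 encodes the class I enzyme that takes most ethanol in liver, Adh4 the class II enzyme, and Adh5 the class III enzyme, a glutathione-dependent formaldehyde dehydrogenase found in nearly every tissue. Adh6-ps1 is listed by RefSeq as a transcribed pseudogene. Aldh1a1 encodes a cytosolic retinal dehydrogenase and Aldh1a7 its close relative, Aldh2 and Aldh1b1 encode mitochondrial enzymes, Aldh3a2 the membrane-bound fatty aldehyde dehydrogenase, and Aldh8a1 an enzyme that acts in the breakdown of kynurenine.

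The 4 Adh genes lie on the plus strand of chromosome 3 in a cluster of 6 Adh loci that spans 237.7 kb. In mm9 coordinates as the deposited tables give them, Adh1 is at chr3:137940609-137953655, Adh6-ps1 at chr3:138037085-138051255, Adh4 at chr3:138078461-138093856 and Adh5 at chr3:138100164-138118463. Adh6-ps1 ends 27.2 kb before Adh4, and Adh4 ends 6.3 kb before Adh5. Adh7, which encodes the class IV enzyme of the upper digestive tract, opens the cluster, and Adh6a lies between Adh1 and Adh6-ps1. Aldh1a1 (chr19:20676472-20717952, plus strand) and Aldh1a7 (chr19:20767443-20802046, minus strand) are neighbours 49.5 kb apart that point toward each other. Aldh1b1 is on chr4:45811894-45817480 (plus), Aldh2 on chr5:122016036-122043833 (minus), Aldh3a2 on chr11:61058254-61080688 (minus) and Aldh8a1 on chr10:21097106-21116384 (plus). None of the 10 loci overlaps another locus of the tables on either strand.

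The members of these families resemble each other in sequence, which bears on the counts because read pairs that fit several places were left out. In the GENCODE vM1 transcripts, the coding sequences of Aldh1a1 and Aldh1a7 were identical at 92.0% of 1504 aligned bases, their longest identical run was 100 bases, and none of 1929 stretches of read length was shared. The coding sequences of Adh1, Adh4 and Adh5 were identical at 66.3% to 68.8% of their aligned bases. Adh6-ps1 shared no stretch of read length with Adh1, Adh4, Adh5 or Adh6a, and its longest identical run was 30 bases, with Adh4.

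RefSeq gives promoter sequence for 8 of the 10 members, and Adh6-ps1 and Aldh2 had no entry. The bases before the start of Aldh1a1 (GRCm38.p6, chr19:20601718-20601967, plus strand) and of Aldh1a7 (chr19:20727557-20727806, minus strand) are shown because the genes are near-copies. Their sex differences were called in C3 for Aldh1a1 and in B6 for Aldh1a7. Aldh1a1 was also lower in B6 females, by a log2 fold change of -0.62 that was not called. For neither gene was the sex difference called as different between the strains. The contrast between the genes was not tested. Capitals mark the longest run that both promoters share, which is 65 bases long and ends 29 bases before the start in each.
Aldh1a1: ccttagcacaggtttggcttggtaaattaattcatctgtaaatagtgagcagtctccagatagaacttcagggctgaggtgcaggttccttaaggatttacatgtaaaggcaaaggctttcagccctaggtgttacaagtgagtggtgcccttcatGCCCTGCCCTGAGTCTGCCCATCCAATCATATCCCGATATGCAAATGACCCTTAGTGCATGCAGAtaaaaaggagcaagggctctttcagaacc
Aldh1a7: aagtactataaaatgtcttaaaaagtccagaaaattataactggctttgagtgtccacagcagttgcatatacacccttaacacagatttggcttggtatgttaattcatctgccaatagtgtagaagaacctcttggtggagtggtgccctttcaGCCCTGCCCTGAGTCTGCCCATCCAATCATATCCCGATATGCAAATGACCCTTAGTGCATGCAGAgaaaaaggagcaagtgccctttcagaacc
The last 100 bases before the start were identical at 94 positions, and over the last 150 bases 108 were. RefSeq lists a further start for Aldh1a1, and which start these livers used was not tested.

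The promoters of Adh1 (chr3:138277335-138277584), Adh4 (chr3:138415247-138415496) and Adh5 (chr3:138442843-138443092, the more CpG-rich of 2 listed starts), all on the plus strand of GRCm38.p6, are shown because these members of a single cluster were called in different comparisons, Adh5 in none. The contrast between these genes was not tested. Capitals mark the motifs searched on both strands, which were the TATA box as TATAAA, the CAAT box as CCAAT, the GC box as GGGCGG and the site of the STAT proteins as TTCNNNGAA.
Adh1: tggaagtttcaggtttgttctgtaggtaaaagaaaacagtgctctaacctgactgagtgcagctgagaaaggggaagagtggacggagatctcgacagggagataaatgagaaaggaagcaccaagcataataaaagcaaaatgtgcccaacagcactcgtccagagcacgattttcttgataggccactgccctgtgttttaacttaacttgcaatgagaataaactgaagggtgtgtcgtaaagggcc
Adh4: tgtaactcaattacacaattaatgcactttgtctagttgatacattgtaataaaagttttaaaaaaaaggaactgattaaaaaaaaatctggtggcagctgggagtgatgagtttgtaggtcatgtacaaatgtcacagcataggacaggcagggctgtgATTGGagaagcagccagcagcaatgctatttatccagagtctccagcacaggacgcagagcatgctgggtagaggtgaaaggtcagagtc
Adh5: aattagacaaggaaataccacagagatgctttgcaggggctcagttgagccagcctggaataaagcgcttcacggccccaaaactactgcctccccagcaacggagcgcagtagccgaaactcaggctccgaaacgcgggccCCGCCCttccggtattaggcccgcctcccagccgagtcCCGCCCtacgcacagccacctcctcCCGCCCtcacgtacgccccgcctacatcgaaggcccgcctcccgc
The Adh5 window holds 21 CpG dinucleotides, 63.6% G and C bases and 3 matches to GGGCGG, on the minus strand. The window of its other listed start (chr3:138436950-138437199) holds 2 CpG, 45.2% G and C bases, no GGGCGG and 1 TATAAA, and which start these livers used was not tested. The Adh4 window holds 1 CpG and a single match, to CCAAT on the minus strand, and the Adh1 window holds 5 CpG and none of the 4 motifs. Over all 32851 promoter windows of the same length, the median was 6 CpG and 52.4% G and C bases, and a match was present in 12.4% for TATAAA, 33.8% for CCAAT, 32.7% for GGGCGG and 7.02% for TTCNNNGAA. A match describes the letters of the window and is no evidence of a bound factor.

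Levels were compared between genes as TPM, which divide counts by gene length. Together the 10 genes made up 0.877% ± 0.101 (SD, n = 5) of all TPM in B6 females and 0.872% ± 0.0766 in B6 males, against 0.536% ± 0.0269 in females and 0.578% ± 0.0306 in males of C3. The lowest B6 liver, at 0.761%, was above the highest C3 liver, at 0.629%. Adh1 held the largest share of this sum, 53.6% of the members' mean TPM in B6 females and 42.5% in B6 males, against 44.6% in females and 36.6% in males of C3. Aldh1a1 followed, with 18.5%, 26.5%, 18.2% and 29.8% in the same order of groups. Summed over the 4 Adh genes, the livers lay between 4486 and 6611 TPM in B6 females and 3803 and 5439 in B6 males, against 2690 and 3430 in females and 2488 and 3164 in males of C3. Summed over the 6 Aldh genes, they lay between 2716 and 4011 TPM in B6 females and 3631 and 4701 in B6 males, against 2119 and 2697 in females and 2672 and 3321 in males of C3. Both sums were lower in C3 than in B6 without overlap within each sex, and the Aldh sums of B6 females and C3 males overlapped.

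**Figure D1:**
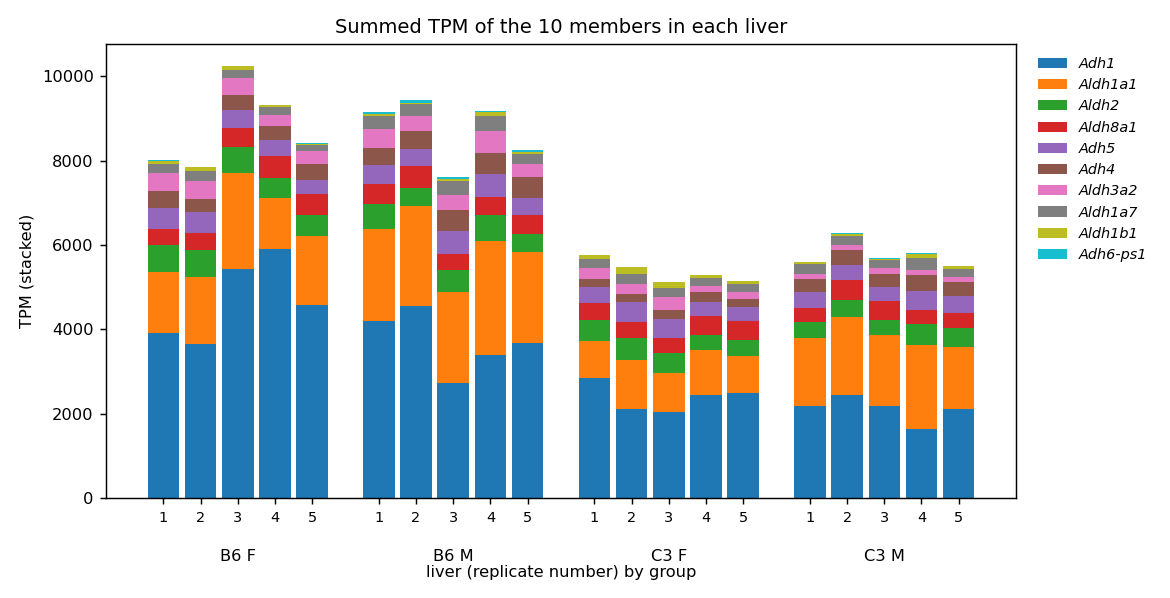
Stacked TPM (vertical axis) of the 10 genes in each of the 20 livers (horizontal axis, by group and replicate number), 1 bar per liver with no error bar. Every C3 bar is shorter than every B6 bar, and the blue Adh1 and orange Aldh1a1 segments fill most of each bar.

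The order of the levels by mean TPM was Adh1, Aldh1a1 and Aldh2 from the top in all 4 groups. Adh1 and Aldh1a1 did not overlap in 3 of the groups, and in C3 males they did, at 2114 ± 289 and 1721 ± 201 TPM (SD, n = 5). Below Aldh1a1, the neighbours Aldh2, Aldh8a1 and Adh5 were not separated beyond the spread between livers in any group, with means from 380.9 to 576.1 TPM. Adh4 and Aldh3a2 had means of 357.6 and 357.9 TPM in B6 females, 462.4 and 396.2 in B6 males and 212.6 and 215.7 in C3 females. In C3 males the same genes were apart, with Adh4 at 336.1 TPM and Aldh3a2 at 126.8 TPM. Aldh1b1 and Adh6-ps1 were at the bottom in every group.

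The first question was which of these genes differed between the sexes within a strain. All 10 genes passed the filter on low counts. They were chosen with earlier results of these data known, so the shares of all loci given beside their calls are no test of the set. Calls required an adjusted p below 0.001 in edgeR's quasi-likelihood test (Benjamini-Hochberg over the 13704 loci tested) together with a log2 fold change beyond 0.5 or -0.5. In B6, 2 of the 10 were called, both male-biased (Adh6-ps1 and Aldh1a7), where 6.34% of all loci were called, 3.12% male-biased and 3.23% female-biased. In C3, 3 of the 10 were called, all male-biased (Adh4, Adh6-ps1 and Aldh1a1), against 6.90% of all loci, 2.79% male-biased and 4.11% female-biased. The median log2 fold change of female over male was -0.27 in B6 and -0.093 in C3, beside 0.002 and 0.015 over all loci tested. The ranges of the 5 females and 5 males did not overlap for 4 genes in each strain, which held for 10.9% of all loci in B6 and 13.1% in C3. These libraries come from whole tissue, so fewer cells of a type and less RNA per cell cannot be told apart in any value below.

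The second question was which genes differed between the strains within a sex. In females, 6 of the 10 were called between C3 and B6, 5 lower in C3 (Adh1, Adh4, Adh6-ps1, Aldh1a1 and Aldh3a2) and 1 higher (Aldh1b1), where 9.40% of all loci were called, 4.77% lower and 4.63% higher. In males, 3 of the 10 were called, all lower in C3 (Adh1, Adh6-ps1 and Aldh3a2), against 9.64% of all loci, 5.55% lower and 4.09% higher. The median log2 fold change of C3 over B6 was -0.472 in females and -0.362 in males, beside 0.019 and 0.015 over all loci. The groups did not overlap for 4 genes in females and 5 in males, against 12.8% and 15.1% of all loci. The sex-by-strain interaction, the sex difference in C3 minus that in B6, was called for Adh6-ps1 alone of the 10, with a negative value, where 0.401% of all loci were called, 0.131% with a negative and 0.270% with a positive value. At an adjusted p under 0.05 alone, 7 members passed between the sexes in B6 and 6 in C3, where 34.6% and 40.0% of all loci passed, and 7 passed between the strains in females and 9 in males, against 32.9% and 34.5%. For the interaction 3 passed at that limit, against 2.96% of all loci. In edgeR's glmTreat, which tests for a change beyond 0.5, at an adjusted p under 0.001, 0 and 1 members passed between the sexes in B6 and C3, against 2.15% and 2.29% of all loci. Between the strains 2 passed in females and 2 in males, against 3.83% and 4.27%, and 1 passed for the interaction, against 0.175%. At an unadjusted p under 0.05 in glmTreat, 2 and 3 members passed between the sexes in B6 and C3. Between the strains 6 passed at that limit in females and 3 in males, and 2 passed for the interaction. The share of all loci at that unadjusted limit was not computed. DESeq2, without the stricter limit, called 3 between the sexes in B6. The strain and sex comparisons share groups of livers and are not independent of each other.

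**Figure D2:**
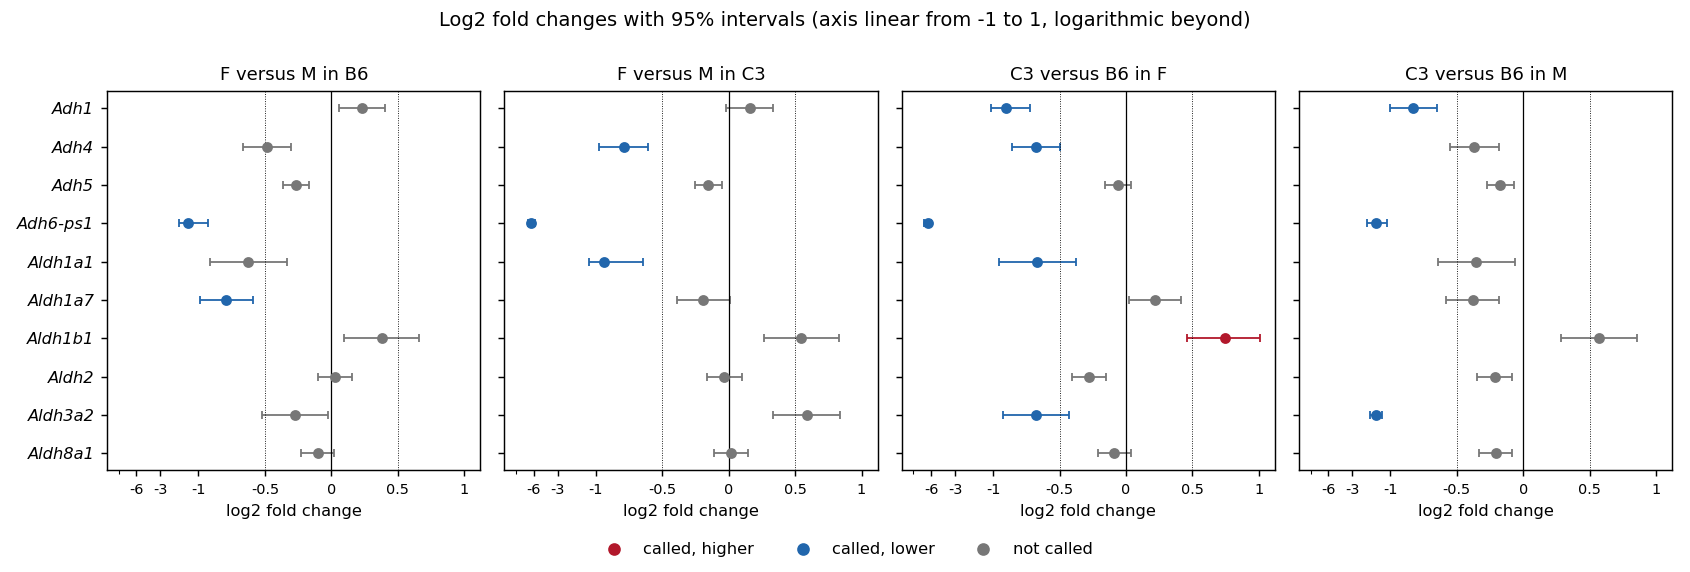
Log2 fold changes (horizontal axis, linear between -1 and 1 and logarithmic beyond) of each gene in the 4 pairwise comparisons, with 95% intervals from edgeR and dotted lines at the fold threshold of 0.5. Adh6-ps1 in C3 and in females lies far to the left, near -6.40 and -6.59, and Aldh1b1 between the strains in females is the single called value to the right of 0.

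Adh1, the class I enzyme, differed between the strains, and its sex differences were not called. In B6 females it was at 2308, 2148, 3376, 3684 and 2721 CPM (counts scaled to library size after TMM normalization), and in B6 males at 2750, 3013, 1788, 2122 and 2446 CPM. C3 females were at 1807, 1300, 1252, 1635 and 1580 CPM and C3 males at 1506, 1661, 1524, 1128 and 1431 CPM. The sexes overlapped in both strains, and within each sex every C3 liver was below every B6 liver. C3 over B6 was -0.90 (SE 0.08, adjusted p = 1.03e-07, edgeR) on the log2 scale in females and -0.83 (SE 0.08, adjusted p = 3.49e-07) in males, a level 1.86-fold and 1.78-fold lower. Within the 3 pools the strain differences ran from -0.98 to -0.80 in females and from -0.91 to -0.77 in males. The call in males was lost in the fit without pool (adjusted p = 0.00274), and Adh1 was itself lower in pool 3 than in pool 1 by 0.46 on the log2 scale (-0.46). Females over males was 0.23 (95% interval 0.05 to 0.40, adjusted p = 0.0401) in B6 and 0.16 (-0.02 to 0.33, adjusted p = 0.145) in C3.

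**Figure D3:**
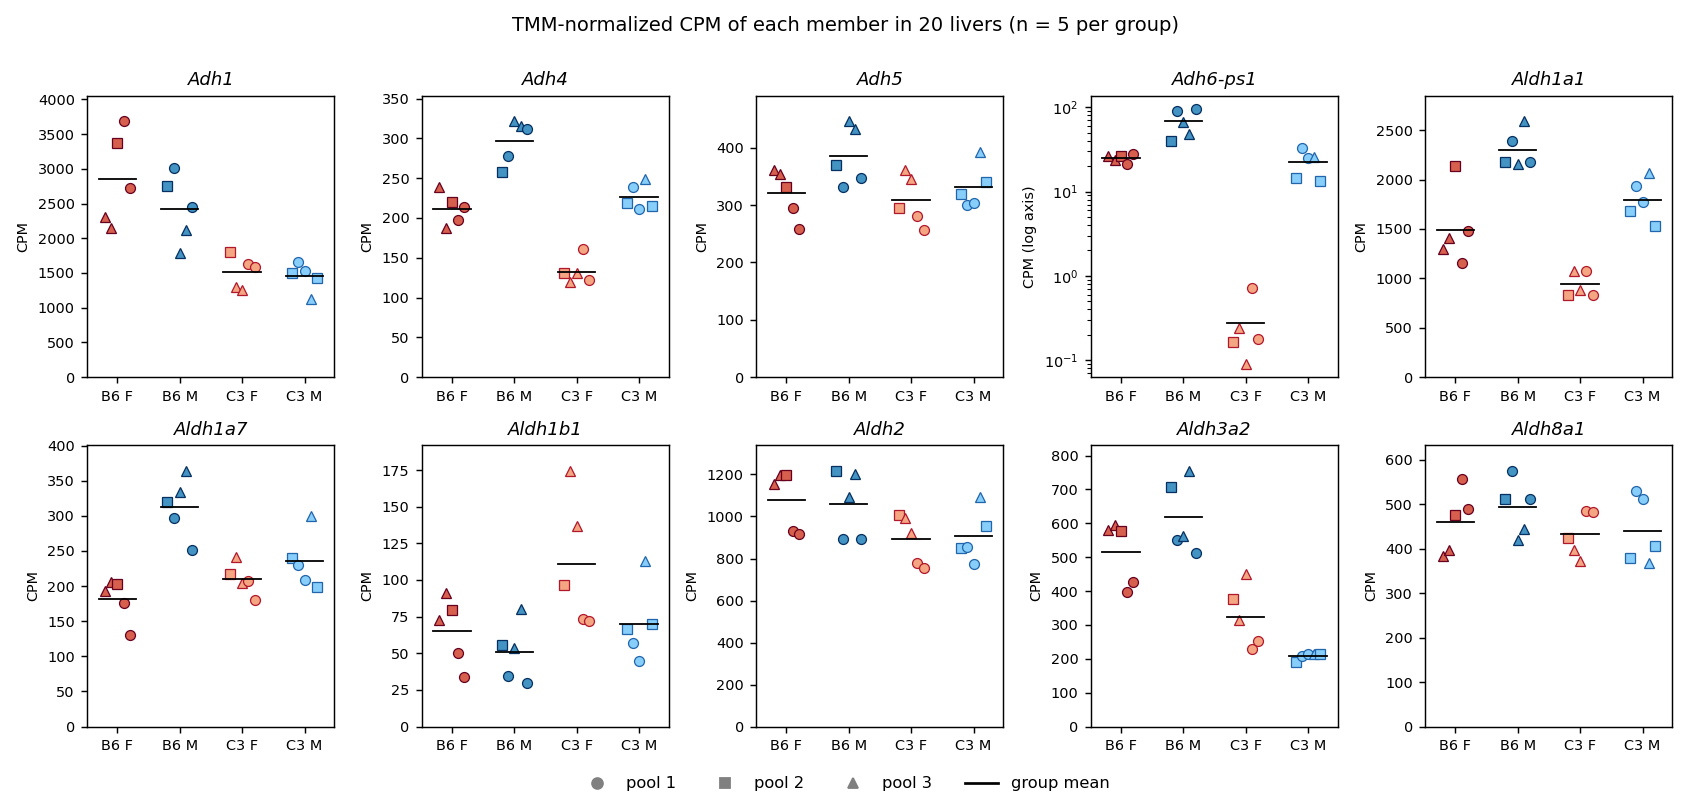
CPM of each of the 10 genes in the 20 livers, 1 panel per gene, with livers as points, sequencing pools as point shapes and the mean of 5 livers as a line; the vertical axis starts at 0 and is logarithmic for Adh6-ps1. C3 females stand apart from the other groups at the bottom of the Adh6-ps1 panel, and C3 males form a tight cluster at the bottom of the Aldh3a2 panel.

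Adh4, the class II enzyme, was lower in females and lower in C3, and its 4 groups were graded by both. It was at 239.4, 187.3, 220.2, 197.5 and 214.3 CPM in B6 females and at 258.1, 277.7, 321.4, 315.3 and 312.2 CPM in B6 males. It was at 130.9, 118.9, 130.4, 160.6 and 121.7 CPM in C3 females and at 218.9, 238.8, 211.6, 249.5 and 214.8 CPM in C3 males. The ranges were separate in all 4 pairwise comparisons, while B6 females and C3 males occupied nearly the same range. Adh4 fell in females of C3 by 0.79 on the log2 scale (SE 0.09, adjusted p = 2.08e-06, edgeR). In B6 the sex difference was -0.49 (SE 0.09, adjusted p = 0.000329), just inside the fold threshold and so not called. The strain difference, C3 over B6, was -0.68 (SE 0.09, adjusted p = 6.82e-06) in females and -0.37 (SE 0.09, adjusted p = 0.00306, not called) in males. The test of whether the sex difference itself differed between the strains gave -0.31 (95% interval -0.57 to -0.05, adjusted p = 0.215).

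Adh5, the class III enzyme, varied little, and no comparison reached the fold threshold. Its levels lay between 258.9 and 361.5 CPM in B6 females and 331.5 and 446.1 in B6 males, against 257.2 and 362.0 in females and 300.5 and 393.4 in males of C3. The group ranges overlapped in all 4 pairwise comparisons. Females over males was -0.27 (SE 0.05, adjusted p = 0.000284, edgeR) in B6 and -0.15 (SE 0.05, adjusted p = 0.0167) in C3. C3 over B6 was -0.06 (95% interval -0.16 to 0.04, adjusted p = 0.366) in females and -0.17 (-0.27 to -0.07, adjusted p = 0.00875) in males. Adh5 was higher in pool 3 than in pool 1 by 0.38 on the log2 scale, which exceeds each of its sex and strain differences.

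Adh6-ps1 had the largest differences of the 10 genes in both sex comparisons and in females between the strains. Raw counts were 1333, 1192, 777, 783 and 1019 in B6 females and 1237, 2910, 2748, 1927 and 3135 in B6 males, against 370, 1143, 825, 1073 and 376 in C3 males, and 5, 11, 4, 24 and 6 in C3 females. As CPM these were 25.1 ± 2.54 (SD, n = 5), 68.0 ± 24.8, 22.2 ± 8.24 and 0.280 ± 0.253. Every C3 female was above the 3 counts taken as the limit of detection and far below the lowest liver of any other group, 13.4 CPM. C3 males and B6 females overlapped, and each sex was separate from the other within both strains.

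The sex difference of Adh6-ps1 was -1.35 (SE 0.20, adjusted p = 5.29e-05, edgeR) on the log2 scale in B6, a 2.54-fold lower level in females, and -6.40 (SE 0.32, adjusted p = 3.56e-11) in C3, an 84.4-fold lower level. C3 over B6 was -6.59 (SE 0.32, adjusted p = 1.13e-11) in females and -1.53 (SE 0.20, adjusted p = 9.14e-06) in males. The difference between the sex effects was -5.05 (95% interval -5.88 to -4.23, adjusted p = 4.33e-07). Within pools, with 0.5 CPM added before taking logs, the sex difference in C3 ran from -5.30 to -4.43 and that in B6 from -1.91 to -0.59. The call in B6 was lost in the fit without pool (adjusted p = 0.00217). The size of the C3 values depends on the scale, since limma on log2(TPM + 1) gave -3.78 for the sex difference in C3, -4.12 for the strain difference in females and -2.57 for the interaction, all still called.

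In the same cluster, Adh4 and Adh1 were also called lower in C3 females than in B6 females, by smaller amounts. Adh4, the next gene downstream, was at -0.79 against C3 males and -0.68 against B6 females, where Adh6-ps1 was at -6.40 and -6.59. Adh1 was at -0.90 against B6 females but at 0.16 against C3 males, not called. It was also called lower in C3 males than in B6 males (-0.83). The differences in size between the genes were not tested. Adh4 had a mean of 212.6 TPM in C3 females, which made the ratio of Adh4 to Adh6-ps1 within a liver 1540 ± 979 (SD, n = 5) in C3 females, against 18.0 ± 1.55 in B6 females, 10.3 ± 3.60 in B6 males and 24.2 ± 8.52 in C3 males. Adh7, at the start of the cluster, was low in all groups, with means between 2.147 and 2.463 TPM. Adh6a had at most 5 counts in any liver and was listed at 0 in all 10 C3 livers. Adh5, 6.3 kb beyond Adh4, had a mean of 386.7 TPM in females and 381.9 TPM in males of C3.

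**Figure D4:**
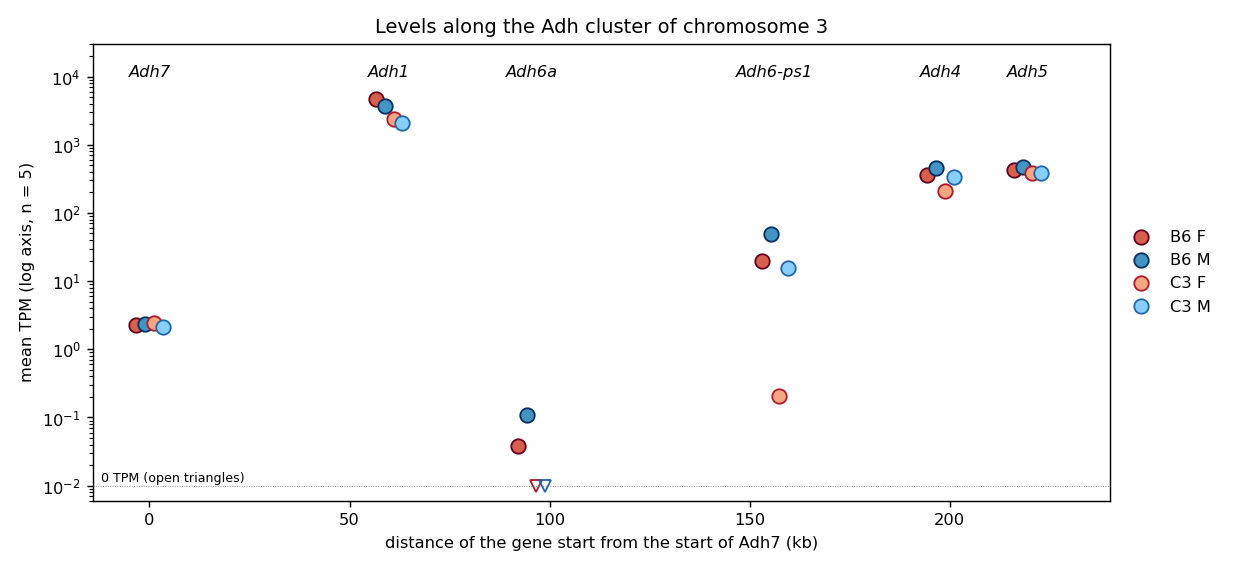
Mean TPM over 5 livers (vertical axis, logarithmic) of the 6 Adh loci against the distance of each gene's start from that of Adh7 in kb (horizontal axis), with the 4 groups as colours, set slightly side by side, and no error bars. At Adh6-ps1 the C3 female point, at 0.2075 TPM, lies far below the other 3, while at Adh7, Adh1, Adh4 and Adh5 the 4 points lie close together on this scale.

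Aldh1a1, the cytosolic retinal dehydrogenase, was lower in females than in males without overlap in both strains. It was at 1297, 1405, 2140, 1154 and 1477 CPM in B6 females and at 2183, 2395, 2158, 2590 and 2179 CPM in B6 males. C3 females were at 835.1, 1078, 877.9, 1076 and 827.5 CPM and C3 males at 1678, 1939, 1776, 2066 and 1535 CPM. Replicate 3 of the B6 females lay close to the males, well above the other 4 females. The sex difference was -0.94 (SE 0.14, adjusted p = 5.99e-05, edgeR) on the log2 scale in C3, with -1.09 to -0.94 within pools. In B6 it was -0.62 (SE 0.14, adjusted p = 0.00197), which was not called, and without that liver it was -0.84 (adjusted p = 3.88e-06) and called. The strain difference in females, -0.67 (SE 0.14, adjusted p = 0.000984), was at the threshold, and its call was lost in 17 of 20 fits that left out 1 liver, where the values ran from -0.75 to -0.46. In males C3 over B6 was -0.35 (SE 0.14, adjusted p = 0.0558), with ranges that did not overlap.

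Aldh1a7, the neighbour and close relative of Aldh1a1, had a sex difference in B6 that was not called in C3. It was at 193.2, 205.3, 202.3, 176.0 and 130.2 CPM in B6 females and at 320.4, 296.6, 333.3, 364.0 and 252.1 CPM in B6 males. C3 females were at 217.1, 241.6, 204.5, 207.1 and 180.2 CPM and C3 males at 240.2, 230.7, 208.2, 299.4 and 198.9 CPM. The sexes were separate in B6 and overlapped in C3. Females over males was -0.79 (SE 0.09, adjusted p = 4.46e-06, edgeR) in B6, with -0.85 to -0.66 within pools, and -0.19 (95% interval -0.39 to 0.01, adjusted p = 0.115) in C3. The difference between these effects was 0.60 (95% interval 0.32 to 0.88, adjusted p = 0.0167), which did not pass the threshold used. The strain difference was 0.22 (SE 0.09, adjusted p = 0.081) in females and -0.38 (SE 0.10, adjusted p = 0.00426) in males.

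The ratio of Aldh1a1 to Aldh1a7 TPM within a liver was 8.52 ± 2.38 (SD, n = 5) in B6 females and 7.53 ± 0.918 in B6 males, and 7.81 ± 0.774 in C3 males and 4.54 ± 0.497 in C3 females. C3 females, between 3.90 and 5.27, did not overlap any other group, whose lowest liver was at 6.56. These are the neighbours whose promoters share the 65-base run shown above, and the ratio was not tested.

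**Figure D5:**
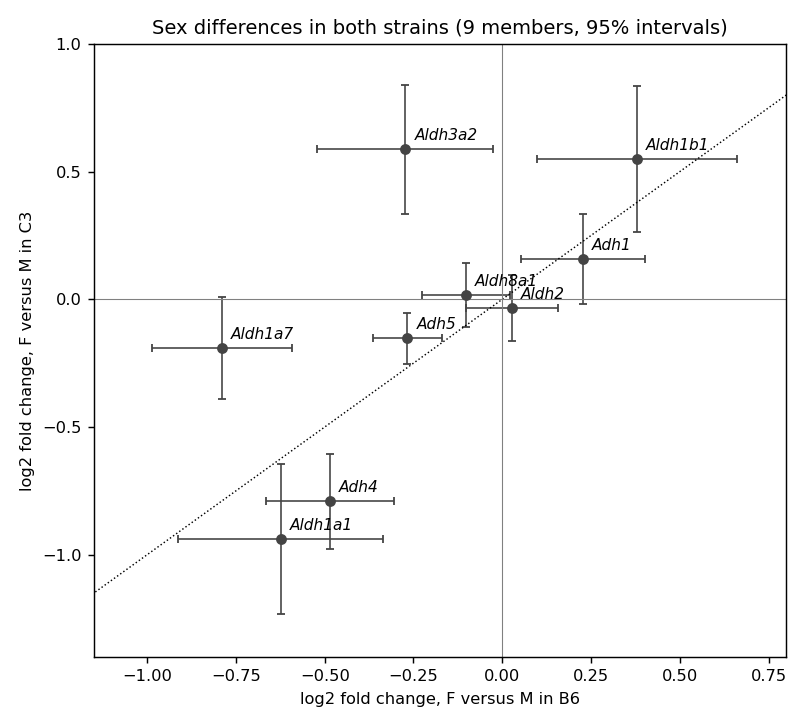
Female over male log2 fold change in B6 (horizontal axis) against that in C3 (vertical axis) for 9 of the genes, with 95% intervals as bars and equal values on the dotted line; Adh6-ps1, at -1.35 and -6.40, is beyond the axes. Adh4, Adh5, Aldh1a1 and Aldh1a7 lie at negative values in both strains, with the C3 interval of Aldh1a7 crossing 0. Aldh1a7 and Aldh3a2 lie farthest from the dotted line.

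Aldh3a2, the fatty aldehyde dehydrogenase, had its lowest and most uniform levels in C3 males. It was at 581.1, 595.3, 575.9, 396.8 and 425.5 CPM in B6 females and at 708.2, 549.9, 562.5, 754.5 and 513.5 CPM in B6 males. C3 females were at 375.9, 315.7, 451.1, 228.7 and 251.7 CPM and C3 males at 189.6, 208.9, 214.1, 214.9 and 213.6 CPM. Every C3 male was below every other liver, while C3 and B6 females overlapped. In males C3 over B6 was -1.53 (SE 0.12, adjusted p = 1.31e-08, edgeR), 2.90-fold lower, with -1.81 to -1.33 within pools. In females it was -0.67 (SE 0.12, adjusted p = 0.000218), with -0.78 to -0.62 within pools. The call in females was lost in the fit without pool (adjusted p = 0.00752) and without replicate 3 of the B6 females (adjusted p = 0.00122) or replicate 4 or 5 of the C3 females (adjusted p = 0.00114 and 0.00105).

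The sex difference of Aldh3a2 had opposite signs in the 2 strains. Females over males was -0.27 (95% interval -0.52 to -0.03, adjusted p = 0.0817, edgeR) in B6 and 0.59 (0.33 to 0.84, adjusted p = 0.00116) in C3, neither of them called. Every C3 female was above every C3 male. The difference between the effects was 0.86 (95% interval 0.51 to 1.21, adjusted p = 0.0067), not called by edgeR and called by DESeq2 (0.85, adjusted p = 0.00015). The sex difference in C3 was called in 5 of 10 alternatives to the main fit and not in the others. The 5 were DESeq2 (adjusted p = 7.53e-05), upper-quartile factors, no filter on low counts (adjusted p = 0.000995, edgeR) and limma with either pseudocount. Upper-quartile factors also moved the median log2 fold change of all loci in this comparison from 0.015 to 0.079. Within pools the sex difference of Aldh3a2 in C3 ran from 0.18 to 0.90.

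Aldh1b1, a mitochondrial enzyme, was the single member called higher in C3, and the most affected by pool. It was at 72.6, 91.0, 79.4, 50.2 and 33.6 CPM in B6 females and at 55.9, 34.2, 53.7, 80.3 and 29.5 CPM in B6 males. C3 females were at 96.8, 174.4, 136.8, 73.6 and 71.7 CPM and C3 males at 66.8, 56.7, 44.7, 113.2 and 69.9 CPM. All 4 pairwise comparisons overlapped, and in each group the livers of pool 1 were the lowest. Aldh1b1 was higher than in pool 1 by 0.62 in pool 2 and by 1.06 in pool 3 on the log2 scale. C3 over B6 in females was 0.74 (SE 0.13, adjusted p = 0.000284, edgeR), with 0.29 to 0.92 within pools. The call was lost in the fit without pool (adjusted p = 0.119), in the fit of the B6 and C3 females alone (adjusted p = 0.00285), by limma without a filter (adjusted p = 0.00159), and without replicate 1 or 5 of the B6 females (adjusted p = 0.00135 and 0.00104) or replicate 2 of the C3 females (adjusted p = 0.0011). In males C3 over B6 was 0.57 (SE 0.14, adjusted p = 0.00307). Females over males was 0.38 (adjusted p = 0.036) in B6 and 0.55 (adjusted p = 0.00434) in C3.

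Aldh2, the mitochondrial enzyme that takes most acetaldehyde in liver, differed little between the sexes and was not called in any comparison. Its level was higher in pool 3 than in pool 1 by 0.35 on the log2 scale, which exceeds each of its sex and strain differences. Its livers ranged from 917.5 to 1199 CPM in B6 females and 891.2 to 1217 in B6 males, against 756.9 to 1006 in females and 771.5 to 1095 in males of C3. Females over males was 0.03 (95% interval -0.10 to 0.16, adjusted p = 0.75, edgeR) in B6 and -0.03 (-0.16 to 0.10, adjusted p = 0.695) in C3. C3 over B6 was -0.28 (SE 0.06, adjusted p = 0.00193) in females and -0.21 (SE 0.06, adjusted p = 0.0123) in males, and neither met the p or the fold threshold. The 95% intervals of the strain difference were -1.07 to -0.72 for Adh1 and -0.41 to -0.15 for Aldh2 in females, and -1.01 to -0.65 for Adh1 and -0.35 to -0.08 for Aldh2 in males. They did not overlap, and the difference between the genes was not tested.

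Aldh8a1 was not called in any comparison. Its livers ranged from 383.8 to 556.5 CPM in B6 females and 420.8 to 575.3 in B6 males, against 371.6 to 485.2 in females and 367.8 to 529.4 in males of C3. The sex differences were -0.10 (95% interval -0.23 to 0.02, adjusted p = 0.188, edgeR) in B6 and 0.02 (-0.11 to 0.14, adjusted p = 0.837) in C3. C3 over B6 was -0.09 (adjusted p = 0.284) in females and -0.21 (adjusted p = 0.0117) in males. Its level was lower in pool 3 than in pool 1, with a log2 difference of -0.40, in the opposite direction to Aldh1b1.

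The labelled tissue was checked against markers of liver cells. The 6 hepatocyte markers, such as Alb and Apoa1, summed to between 107600 and 138800 TPM in B6 females and 83730 and 109600 in B6 males, against 147100 and 177200 in females and 111500 and 139600 in males of C3, and 5 lymphocyte markers summed to at most 6.285 TPM. The hepatocyte sums were thus higher in C3 without overlap in each sex, opposite to the sums of the members. These sums were also higher in females, with separate ranges in C3 only. Of the 6 markers, however, Alb alone had a positive log2 fold change of female over male (0.415 in B6 and 0.455 in C3, not called). The median over the 6 was -0.346 in B6 and -0.279 in C3. Of these 6, Apoa1 alone was called in C3 against B6, higher in females and males (0.84 and 0.71). Alb (0.49 and 0.45) and Ttr (0.23 and 0.23) were also higher, not called. Tat was lower (-0.40 and -0.05, not called). Cps1 (-0.13 and 0.08) and Serpina1c (0.13 and -0.12) changed sign with sex. The median of C3 over B6 for these markers was 0.18 in females and 0.155 in males, so the higher sums do not describe every hepatocyte marker. Of 8 markers of pericentral hepatocytes, those around the central vein, 6 were called lower in C3 females and 5 lower in C3 males than in B6, among them Oat (-1.98 and -1.47) and Slc1a2 (-2.38 and -1.78), a glutamate transporter, and in females Cyp2e1, which is also counted with the ethanol genes below. Their sums lay between 12220 and 16830 TPM in B6 females and 10200 and 15090 in B6 males, against 7468 and 9329 in females and 8520 and 12370 in males of C3. Of 8 periportal markers, 1 was called lower in C3 females and 2 lower in C3 males, and of 5 Kupffer cell markers, 3 and 2. Over all loci, 4.77% were called lower in C3 females and 5.55% lower in C3 males. The median log2 fold change of C3 over B6 was -0.732 in females and -0.843 in males for the pericentral markers. It was -0.547 and -0.358 for the Kupffer markers and -0.246 and -0.113 for the periportal markers, which went both ways. Cyp2f2 was higher in C3 (0.23 and 0.24, not called), and Hsd17b13 was called lower (-0.92 and -1.19). These values stand beside the lower Adh1, Adh4, Aldh1a1 and Aldh3a2 of C3, of which Adh4 and Aldh1a1 were called in females only. The part of the markers in the result was not tested. Between the sexes, Cyp1a2 was the single pericentral marker called, lower in C3 females (-1.0, adjusted p = 2.06e-07), beside the lower Adh4 and Aldh1a1, and its part was not tested either. Of the 8 periportal markers, Cyp2f2 was called lower in females in both strains (-0.86 and -0.88) and Ctsc higher in both (1.54 and 1.62), and of the hepatocyte markers, Serpina1c was called lower in females in both (-0.81 and -0.56). Between the sexes, 6.34% of all loci were called in B6 and 6.90% in C3. Sums of markers of other cells differed between the sexes too. The 5 Kupffer cell markers summed to 335.2 to 440.5 TPM in B6 females and 201.9 to 319.1 in B6 males, and to 232.5 to 344.6 in C3 females and 146.1 to 219.4 in C3 males. The 6 stellate cell markers lay at 352.9 to 416.7 and 262.7 to 299.7 TPM in B6, and at 282.3 to 318.3 and 206.0 to 247.7 in C3, in the same order. The 4 endothelial markers lay at 250.6 to 293.3 TPM in B6 females and 185.2 to 217.0 in B6 males, and at 216.2 to 264.2 in C3 females and 175.7 to 210.2 in C3 males. The erythroid list, 3 genes of which Alas2 alone was tested, lay between 22.63 and 35.25 TPM in B6 females and 153.9 and 191.6 in B6 males, and between 17.39 and 28.67 in C3 females and 194.3 and 222.6 in C3 males. Alas2 was called lower in females in both strains (-2.76 and -3.28). Hbb-b1 and Hba-a1 did not pass the filter on low counts, and their sexes overlapped in both strains. The part of the markers of these other cells in the sex differences was not tested. Reads of both strains were aligned to the same reference genome, so a lower level in C3 and fewer aligned C3 reads cannot be told apart.

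Of the other genes of these families, few passed the test. Of 3 further Adh genes analysed, 2 were tested, and Adhfe1, a mitochondrial hydroxyacid-oxoacid transhydrogenase, was lower in C3. It was at 118.5 ± 12.9 CPM (SD, n = 5) in B6 females and 146.4 ± 19.6 in B6 males, against 71.6 ± 5.63 in females and 87.3 ± 15.7 in males of C3, with a strain difference of -0.73 (adjusted p = 4.09e-06, edgeR) in females and -0.77 (adjusted p = 2.24e-06) in males. Of 15 further Aldh genes, 12 were tested, and Aldh3b3 alone was called, female-biased in both strains. It had between 66 and 151 counts in each female liver and at most 1 count in each male liver. Against 3 counts per male library, the level in females exceeded that in males at least 23.6-fold in B6 and at least 35.4-fold in C3 (adjusted p = 9.24e-10 and 1.78e-10, edgeR). Neither Adhfe1 nor Aldh3b3 was called in the other kind of comparison.

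Among 7 genes of ethanol and acetate handling, Acss3 and Cyp2e1 were called. Acss3, a mitochondrial acyl-CoA synthetase, was higher in females by 1.00 in B6 (adjusted p = 8.39e-05, edgeR) and by 1.56 in C3 (adjusted p = 9.53e-07) on the log2 scale, and lower in C3 males than in B6 males (-1.13, adjusted p = 2.41e-05). Its sexes overlapped in B6 and were separate in C3, at 41.4 ± 8.22 CPM in females and 13.5 ± 2.15 in males there. Cyp2e1, the cytochrome P450 that also oxidizes ethanol, was lower in C3 females than in B6 females (-0.53, adjusted p = 6.19e-05), at 5848 ± 719 against 8467 ± 1417 CPM.

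Of 27 genes of retinoid metabolism, 21 were tested. Between the sexes, 2 were called higher and 2 lower in females of B6, and 1 higher and 2 lower in females of C3. The 2 lower genes were Aox1 and Aox3 in both strains, which encode aldehyde oxidases, and the male bias of Aox3 was the larger, at -1.55 (adjusted p = 9.15e-08, edgeR) in B6 and -2.06 (adjusted p = 3.47e-09) in C3. Aox1 was -1.03 in B6 (adjusted p = 1.77e-09) and -1.31 in C3 (adjusted p = 6.86e-11). The female-biased genes were Rdh9 (1.12) and Bco1 (0.58) in B6, and Rdh16 (0.85) in C3. Between the strains, Bco1, which cleaves beta-carotene into retinal, was higher in C3 by 1.48 in females (adjusted p = 1.82e-09) and by 1.56 in males (adjusted p = 1.4e-09). Bco2, which cleaves carotenoids off centre, was lower by -1.70 (adjusted p = 1.43e-10) and -1.85 (adjusted p = 5.19e-11). Aox1 was lower in C3 in both sexes (-1.03 and -0.76), and Rdh9 in females (-0.75). These lists were counted without a test of the list, and the share of all loci called is given above for each comparison.

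The genes whose log2 CPM over the 20 livers was most like that of each member were found by Pearson correlation, given as a description, since the livers share groups and pools. The nearest to Adh4 was Aox1 (r = 0.963), which was also the nearest to Adh6-ps1 (r = 0.92). Tdo2, the hepatic tryptophan dioxygenase, was nearest to Aldh1a1 (r = 0.953), Efemp1 to Adh1 (r = 0.975) and Tlcd2 to Aldh1a7 (r = 0.911). Cox7c, a subunit of cytochrome c oxidase, was nearest to Adh5 (r = 0.96), Sqrdl to Aldh1b1 (r = 0.96), Gpt to Aldh2 (r = 0.934), Ugt3a1 to Aldh3a2 (r = 0.949) and Msi2 to Aldh8a1 (r = 0.93). Next in the order came Zfp39 for Adh1, Kmo for Adh4, Txndc15 for Adh5, Cyp1a2 for Adh6-ps1, Nat8 for Aldh1a1, Ces2e for Aldh1a7, Aldh4a1 for Aldh1b1, Ttc38 for Aldh2, Decr2 for Aldh3a2 and Hacd2 for Aldh8a1, with r between 0.906 and 0.962. Among the members themselves, Adh4 and Adh6-ps1 (r = 0.939), Adh4 and Aldh1a1 (r = 0.915) and Adh6-ps1 and Aldh1a1 (r = 0.881) were the most alike. Aldh1a1 and its neighbour Aldh1a7 had r = 0.614, and Adh1 and Adh4 had r = 0.389. Aldh1b1 and Aldh8a1, which differed in opposite directions between pools, had r = -0.728.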

How the data were processed

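Total RNA of 20 livers was depleted of ribosomal RNA and sequenced as strand-specific read pairs. The authors trimmed reads with Cutadapt 1.9.1, aligned those of both strains to mm9 with STAR 2.5.1b and counted pairs on RefSeq genes with featureCounts (Subread 1.5.0-p1), and multimapping or multi-overlapping pairs stayed uncounted. The authors deposited raw counts per gene, without normalization, and TPM values scaled from them, whose gene length is not given in the sources used here. Symbol and identifier columns carry each other's header and were taken by their content.

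Groups and pools came from the sample labels. Counts were fitted with edgeR 4.0.16 in R 4.3.3 (filterByExpr, TMM, quasi-likelihood test, group and pool, all 20 libraries), with Benjamini-Hochberg adjustment over 13704 loci. Standard errors were derived from the F statistic. A gene was called at an adjusted p under 0.001 and a log2 fold change beyond 0.5, the thresholds of the study's methods. A library shows a gene from about 3 counts, and such limits cover counting error only. The replicates were separate mice. Lists were described by counts and medians. The steps were tested on simulated data.

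The 10 members and the gene lists were chosen with earlier results of these data known. Named were all 10 members, genes of the other lists called in at least 1 pairwise comparison, and for each member the 2 most correlated genes. Alternatives were DESeq2 1.42.0, limma 3.58.1 on log2(TPM + 1) and log2(TPM + 0.1), other size factors, no filter, no pool term, a replicate block, separate fits, other thresholds and leaving out each liver. Adh6b and the whole genome bisulfite data were not analysed here. Of the retinoid list, 1 gene is not reported here and was left out of its counts.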

Additional observations from a re-analysis of the deposited data

Results flagged for a closer look

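In 40 sets of 5 livers, 1 for each gene and group, the most extreme liver was compared with the rest by its gap to the nearest liver over the range of the group, and 3 sets passed Dixon's 95% limit, where chance passes about 1 in 20. Replicate 4 of the C3 females was the highest of its group for Adh4, at 160.6 CPM against 130.9 CPM in the next liver, with a gap of 0.713 of the range. The same liver was the highest for Adh6-ps1, at 0.721 CPM against 0.244 CPM, a gap of 0.756 of the range, and it held 24 counts against 4 to 11 in the other 4 livers. Replicate 1 of the C3 males was the lowest of its group for Aldh3a2, at 189.6 CPM against 208.9 CPM in the next liver, a gap of 0.766 of the range. The sex difference of Adh6-ps1 differed between the strains by -5.05 on the log2 scale, by the interaction test of edgeR, and every female was below every male of its own strain in both.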

How the results depend on the processing

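With 5 livers per group the spread between mice, more than counting error, sets the precision of the values. The counts of Adh6-ps1 in C3 females, 4 to 24 per liver, carry more counting error. They too varied widely between mice, at 0.280 ± 0.253 CPM (SD, n = 5). Over the alternatives, 471 of 490 single-gene values kept their side of the thresholds, 9 lost and 10 gained a call, and no called value changed sign. Over fits leaving out 1 liver these were 969 of 1000, with 23 lost and 8 gained. The number of members called, 2 and 3 for female against male in B6 and C3, 6 and 3 for C3 against B6 in females and males and 1 for the interaction, ranged from 2 to 4, 3 to 4, 4 to 6, 3 to 3 and 1 to 1 when 1 liver was left out. For sex in B6 the 4 came without replicate 3 of the B6 females, with Adh4 and Aldh1a1 gained. For sex in C3 the 4 came with Aldh3a2 gained, without replicate 3 of the B6 males or replicate 2 or 4 of the C3 females. For strain in females the 4 came without replicate 3 or 5 of the B6 females or replicate 2 or 5 of the C3 females. DESeq2 called 2 for the interaction. Without the pool term 1 was called between the sexes in B6 and 3 between the strains in females. At an adjusted p under 0.05 alone, the counts were 7 and 6 for sex in B6 and C3, 7 and 9 for strain in females and males and 3 for the interaction, beside 34.6%, 40.0%, 32.9%, 34.5% and 2.96% of all loci. With edgeR's glmTreat against a change of 0.5 they were 0 and 1 for sex in B6 and C3, 2 and 2 for strain in females and males and 1 for the interaction, by construction a stricter test. At an unadjusted p under 0.05 in glmTreat they were 2, 3, 6, 3 and 2 in the same order, with no share of all loci computed. DESeq2 called 3 for sex in B6. Same-numbered mice did not deviate together, with mean correlations between -0.24 and 0.218 and not every pair over 0.1, so the numbers were not taken as a pairing. With a replicate block, 2, 4, 6, 4 and 1 members were called, all those of the fit without it among them. The cause of these shifts was not tested.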
